A study of Homo sapiens with 9 samples.

Results

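HaloTag-RPB1-70R cells were compared with HaloTag-RPB1-52R cells, 1 single-cell library each. Both are U2OS, a human osteosarcoma line, in which RPB1, the largest subunit of RNA polymerase II, carries HaloTag, a self-labelling enzyme, at its N-terminus. The 2 differ in the C-terminal domain (CTD) of RPB1, which has 52 heptad repeats in the wild-type human protein and 70 in the lengthened form. Cells of both libraries, as of all 6 in the study, spent their last 6 days before harvest at 1 µg per ml of α-amanitin, which poisons RNA polymerase II. Barcodes were kept if they had 500 genes or more and no more than 20% of their UMIs (unique molecular identifiers, counts of single captured transcripts) in mitochondrial genes, which left 4677 cells of 70R and 3705 of 52R, or 8382 of the 20451 cells of the series. The other 4 libraries are HaloTag 25R and Dendra2 (a photoconvertible fluorescent protein) 25R, 52R and 70R. The labels do not say whether a line is 1 clone or a pool. The 2 sequencing runs of a HaloTag library are merged in its counts, so there is no replicate of either genotype. All differences below are between 2 libraries, without a test, and every interval covers counting error only.

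The CTD is a long, flexible tail of near-identical heptads that is phosphorylated as the polymerase leaves a promoter and elongates. It is a platform for capping, splicing and 3′ end factors, and CTD length is known to bear on how polymerases gather at active genes. Transcription occurs in bursts, described by how often a gene switches on (burst frequency) and how many transcripts each burst gives (burst size). The comparison describes how the transcriptome and bursting differ between lines with a lengthened and a wild-type CTD when the tag is the same. CTD length, line and library differ together in this pair, so the part of CTD length in any difference below was not tested.

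Summed UMIs were nearly equal, 53863648 in 52R and 54309368 in 70R, but were spread over more cells in 70R. The median cell held 13567 UMIs and 3854 genes in 52R and 10812 UMIs and 3363 genes in 70R, and the median mitochondrial share was 8.86% and 9.08%. The libraries shared 4 cell barcodes. Cell cycle classes from gene scores put 27.1% (Wilson 95% interval 25.7 to 28.6) of 52R and 22.9% (21.7 to 24.1) of 70R cells in S phase, and 41.9% and 44.1% in G2/M. Markers of other cell types were summed over each list: all 12 leukocyte markers together stood at 2.97 CPM (UMIs of a gene scaled to a common library total) in 52R and 5.40 CPM in 70R, and the 8 endothelial markers at 48.3 and 45.4 CPM, with 1 of them measured and PECAM1 and KDR at 0 UMIs in both. The labels call the cells epithelial. Of 12 epithelial markers 4 were measured, and the list's summed level was 1334 CPM in 52R and 1062 CPM in 70R. Its members differed widely: the keratin gene KRT8 was at 312 and 175 CPM, CDH1 at 0.11 and 0.31 CPM and EPCAM at 5.70 and 0.22 CPM. The intermediate filament gene VIM stood at 2857 and 2554 CPM.

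POLR2A, which encodes RPB1 (GRCh38 chromosome 17, 7484366 to 7514616, plus strand), stood at 323 CPM (95% exact Poisson interval 318 to 327) in 52R and 205 CPM (201 to 209) in 70R. The 52R level was 1.58-fold higher (1.54 to 1.61). The Dendra2 pair also had the higher level at 52R (238 CPM) than at 70R (188 CPM). The level did not follow CTD length, since HaloTag 25R stood at 195 CPM, near 70R, and Dendra2 25R at 293 CPM. These 3′ counts do not separate tagged from untagged transcripts. POLR2A was detected in 70.9% of 52R and 57.0% of 70R cells when every cell was thinned to 5000 UMIs, and in 89.8% and 78.0% without thinning. POLR2D, a subunit of the stalk of the enzyme, was also lower in 70R, at 35.0 against 53.2 CPM (log2 −0.60, but −0.17 relative to its neighbours on chromosome 2, a scale described below), and POLR2K, a small shared subunit, was higher at 211 against 163 CPM (log2 0.37). The other 9 subunits lay between log2 −0.30 and 0.26, and the median of all 12 was 0.00. Of 41 measured CTD kinases, phosphatases and elongation factors, 2 were at least 1.5-fold higher in 70R and 0 lower (median log2 −0.02), beside 2.61% and 3.53% of all measured genes. They were ELL2, a super elongation complex subunit (33.4 against 17.1 CPM, log2 0.96), and CDC73, a PAF1 complex subunit (40.3 against 23.8 CPM, log2 0.76, and 0.42 relative to its neighbours on chromosome 1).

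Across the 8318 genes with a mean of at least 10 CPM in the 2 libraries, levels were close. The median log2 ratio of 70R over 52R was −0.03 (SD over genes 0.31), and the quartiles were −0.19 and 0.14. At least 2-fold higher in 70R were 31 genes (0.373%), and 42 (0.505%) were at least 2-fold lower. At 1.5-fold the counts were 217 (2.61%) and 294 (3.53%). The values nearest the 2-fold line were 1.004 for CTSL just inside and 0.997 for C1QTNF12 just outside among higher genes, and −1.003 for DEPP1 and −0.999 for PNPLA3 among lower ones. Long noncoding genes passed 2-fold more often than protein-coding genes, at 3.74% of 321 against 0.764% of 7983, and no gene at or above 500 CPM did.

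**Figure D1:**
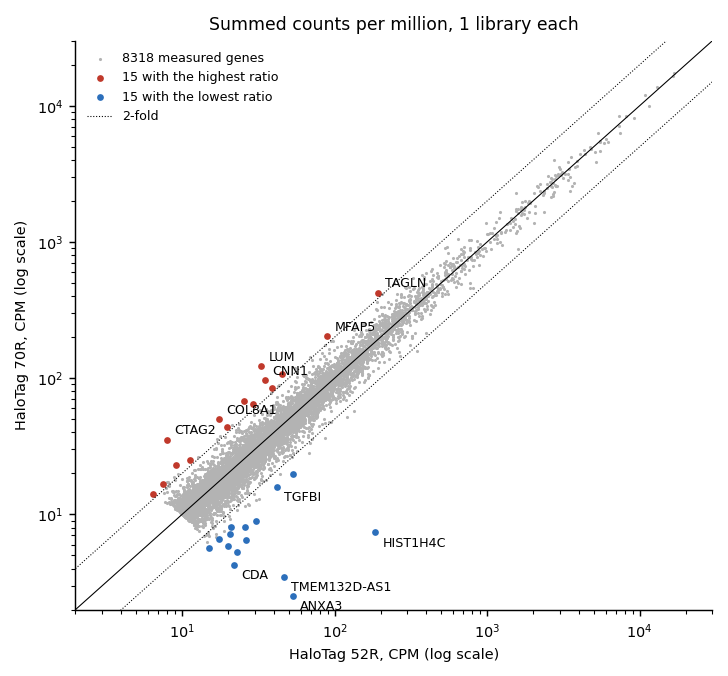
Level (CPM, from summed counts) of each measured gene in HaloTag 52R (x axis) and HaloTag 70R (y axis), both on log scales, with the 15 highest and 15 lowest ratios in colour and 2-fold as dotted lines. Most points lie on the diagonal, and HIST1H4C, ANXA3 and TMEM132D-AS1 stand farthest below it.

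The 3 ratios farthest from 1 were of genes lower in 70R. HIST1H4C, a replication-dependent histone H4 gene, stood at 185 CPM (181 to 188) in 52R and 7.37 CPM (6.66 to 8.12) in 70R, 25.1-fold lower (interval 22.7 to 27.8). It was 17.6 CPM in HaloTag 25R, and 87.4 CPM in Dendra2 25R, 1016 CPM in Dendra2 52R and 80.6 CPM in Dendra2 70R. In both tags 52R was the highest library. Within S, G2/M and other cells taken separately its log2 ratio was −4.71, −4.52 and −5.51. The other histones did not share its size: over the 15 measured replication-dependent histones the median was −0.14, with HIST1H1A, a linker histone, at −0.95 and HIST1H2BJ, an H2B gene, at 0.65. Histone genes resemble each other in sequence, and how reads were split among them was not tested. What share of histone transcripts these 3′ counts capture was not tested either, so the ratio is one of captured transcripts only.

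ANXA3, a calcium-dependent membrane-binding annexin, stood at 53.2 CPM in 52R and 2.52 CPM in 70R, 21.1-fold lower (17.7 to 25.2). The other 4 libraries ran from 42.4 to 69.8 CPM, so 70R alone was low. TMEM132D-AS1, a long noncoding RNA, was 13.2-fold lower in 70R (46.3 against 3.498 CPM), and here the remaining libraries ran from 14.3 to 31.6 CPM. CDA, the cytidine deaminase of pyrimidine salvage, was at 21.7 and 4.25 CPM, and TGM2, a protein-crosslinking transglutaminase, at 22.9 and 5.30 CPM. HNMT, which methylates histamine, stood at 30.5 and 8.91 CPM, and RASSF4, a Ras-association domain protein, at 25.7 and 8.12 CPM. The matrix genes COL5A2, a type V collagen chain, and TGFBI, a secreted adhesion protein, were both at log2 −1.40. The other 6 of the 15 lowest ratios were long noncoding genes, AL606500.1, LINC02615, AC013652.1, AL589182.1, AC131571.1 and AC006213.2, between log2 −2.01 and −1.36.

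Differences toward 70R were smaller. CTAG2, a cancer-testis antigen gene on the X chromosome, stood at 7.93 CPM (7.19 to 8.72) in 52R and 35.2 CPM (33.7 to 36.8) in 70R, 4.44-fold higher (3.999 to 4.95). LUM, the collagen-binding proteoglycan lumican, was 3.71-fold higher (3.52 to 3.91), at 122 against 33.0 CPM. COL8A1, a short-chain collagen, was at 50.2 against 17.5 CPM. Calponin, CNN1, and transgelin, TAGLN, both actin-binding proteins of contractile cells, were at 96.1 against 34.9 CPM and 424 against 192 CPM. Secreted factors were among the 15 highest ratios too: CCN3, a matricellular regulator (log2 1.41), CCL26, an eosinophil chemokine (1.24), MFAP5, a microfibril protein (1.19), and SELENOP, a selenium carrier (1.16). FOS, an immediate early AP-1 subunit, was at 64.2 against 29.0 CPM. ANKRD45, PLXDC2, C1orf53, the acyl-CoA thioesterase ACOT2 and the noncoding LINC00862 completed them, from log2 1.12 to 1.34.

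Among genes averaging at least 500 CPM, the lowest ratios were those of the metal-binding metallothioneins MT1E (log2 −0.84, 1602 to 894 CPM) and MT2A (−0.56), the reductase gene DHRS2 (−0.82), the mitochondrial chaperonin HSPD1 (−0.73) and the acyl-CoA-binding protein DBI (−0.61). The highest were RPS10 (0.77), KRT17, a keratin (0.76, 530 to 900.0 CPM), the small heat shock protein CRYAB (0.71), MYL12A, a myosin light chain (0.58), and RPL36 (0.58). Ribosomal protein genes have many near-identical pseudogenes, so RPS10 and RPL36 are uncertain. Relative to chromosomal neighbours, HSPD1 and DBI on chromosome 2 were at −0.38 and −0.15, and RPL36 on chromosome 19 at 0.13.

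The Dendra2 pair shares no library with this one. Of the 31 genes at least 2-fold higher in HaloTag 70R, 20 were also above 0 in Dendra2 70R over 52R, 5 of them at least 2-fold, and of the 42 lower genes 31 were below 0, 9 of them at least 2-fold. Past 2-fold in the opposite direction were 2 of the higher and 2 of the lower genes. Of all measured genes, 60.8% were above 0 in the Dendra2 pair and 39.2% below, 0.818% were at least 2-fold higher and 1.03% at least 2-fold lower. CTAG2 (log2 3.33 in Dendra2), LUM (1.91) and HIST1H4C (−3.66) had the same direction there at over 2-fold. CTAG2 varied widely among libraries, however. It stood at 1.10 CPM in Dendra2 52R, 11.4 CPM in Dendra2 70R, 148 CPM in Dendra2 25R and 2.36 CPM in HaloTag 25R. Over all measured genes the 2 pairs' ratios had a Pearson r of 0.22 and a Spearman rho of 0.19 across genes, which are not independent replicates. HaloTag 25R shares the 52R library with this comparison, so for these genes only levels were set side by side. HaloTag 25R lay nearer to 52R than to 70R for 23 of the 31 higher genes and 21 of the 42 lower genes. These genes were chosen by their 70R and 52R levels, and the share over all measured genes was not computed. The counts therefore do not show which library is unusual.

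Many of the smaller differences followed chromosomal position. Of the 566 measured genes of chromosome 2, 507 (89.6%) were lower in 70R, with a median log2 of −0.36, and 89 of the 294 genes at least 1.5-fold lower lay there. Chromosome 1 from 140 Mb to its end went the other way: 346 of 381 genes (90.8%) were higher, median 0.32, against a median of −0.03 for the 473 genes below 140 Mb. On chromosome 19 between 2 and 20 Mb, 200 of 211 genes (94.8%) were higher, median 0.45, while the first 2 Mb had a median of −0.13 over 38 genes. All 7160 genes outside these 3 blocks had a median of −0.03. Outside chromosomes 2 and 19, whole-chromosome medians lay between −0.12 and 0.12. The blocks were chosen after their values were seen.

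In 10 Mb windows with at least 20 measured genes (165 in all), the lowest medians were on chromosome 2, at 210 to 220 Mb (−0.46), 110 to 120 Mb (−0.46) and 40 to 50 Mb (−0.45). The highest were on chromosome 19 at 10 to 20 Mb (0.49), chromosome 1 at 140 to 150 Mb (0.47) and chromosome 1 at 160 to 170 Mb (0.38). Of the 12 windows of chromosome 2, 10 were below −0.2, and the 66 genes between 80 and 110 Mb were not shifted, with a median of −0.05. In the Dendra2 pair the same 3 blocks had medians of −0.02, 0.09 and 0.06, and in HaloTag 25R over 52R of −0.04, −0.08 and 0.01. The 25R and 70R ratios share the 52R library, so they are not independent of each other. Outside the 3 blocks, windows beyond 0.2 included 3 of chromosome 17 from 60 to 90 Mb (−0.29 to −0.33), 3 of chromosome 14 from 70 Mb (0.27 to 0.31), chromosome 6 at 150 to 160 Mb (0.35) and chromosome 4 at 70 to 80 Mb (−0.37), where ANXA3 lies. On chromosome 2 itself, 3 windows were below −0.2 in the Dendra2 pair as well, at 20 to 30 Mb (−0.28), 30 to 40 Mb (−0.29) and 230 to 240 Mb (−0.21). Position-dependent shifts as such were not confined to this pair: 28 windows of the Dendra2 pair lay beyond 0.2 in either direction, against 34 here (20 lower and 14 higher), and the widest Dendra2 window, on chromosome 5 at 30 to 40 Mb, had a median of 0.83 against −0.01 here.

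**Figure D2:**
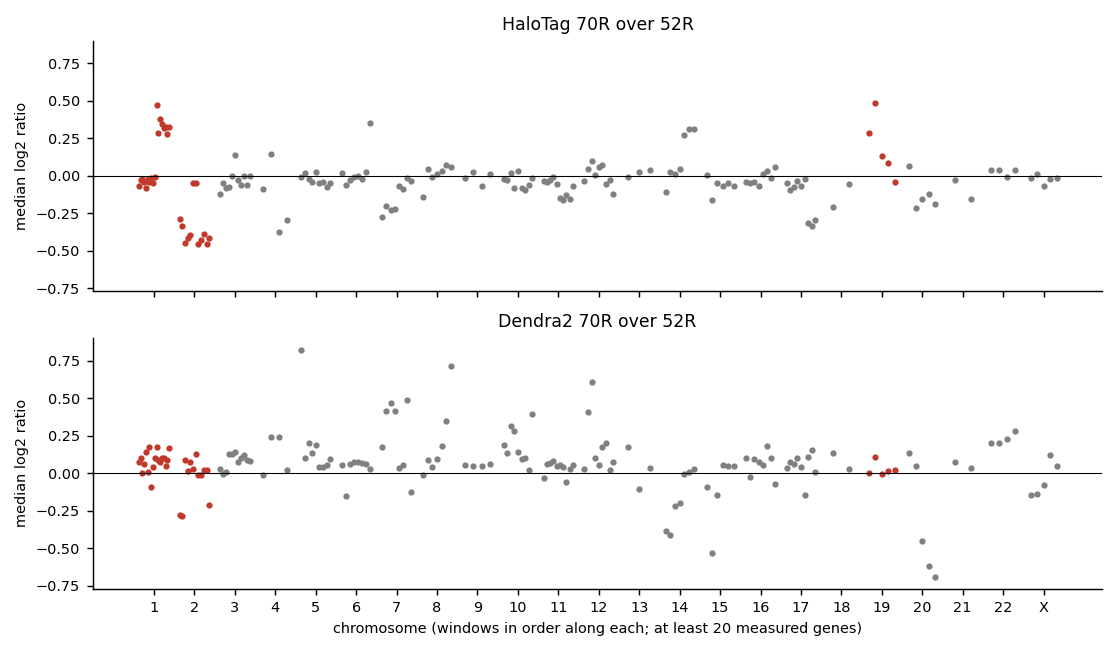
Median log2 ratio of 70R over 52R in each 10 Mb window with at least 20 measured genes, ordered along each chromosome, for the HaloTag pair (top) and the Dendra2 pair (bottom), with chromosomes 1, 2 and 19 in red. In the HaloTag pair chromosome 2 lies low, and the later windows of chromosome 1 and the earlier ones of chromosome 19 lie high. The Dendra2 pair departs from 0 mostly on other chromosomes, but also in 3 windows of chromosome 2.

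Cell by cell, the 70R library stood apart from the other 5. Chromosome 2 gave a median of 5.85% of a 70R cell's nuclear-gene UMIs (5th to 95th percentile 5.04 to 6.63) and 7.24% of a 52R cell's, and the other 4 libraries had medians from 7.02% to 7.42%. Of the 4677 cells of 70R, 99.0% were below the 52R median. The chromosome 19 block gave 3.10% in 70R, 2.23% in 52R and 2.37% to 2.48% elsewhere, with 98.1% of 70R cells above the 52R median. For the chromosome 1 block the medians were 4.64%, 3.79% and 3.57% to 3.77%. There the 70R cells varied more (coefficient of variation 0.126 against 0.0948), and 561 of them (12.0%) lay below the 52R median. Those 561 cells had a chromosome 2 share of 5.86% and a median of 10803 UMIs, close to the 5.84% and 10812 UMIs of the rest. DNA content was not measured, and its part in these shifts was not tested.

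**Figure D3:**
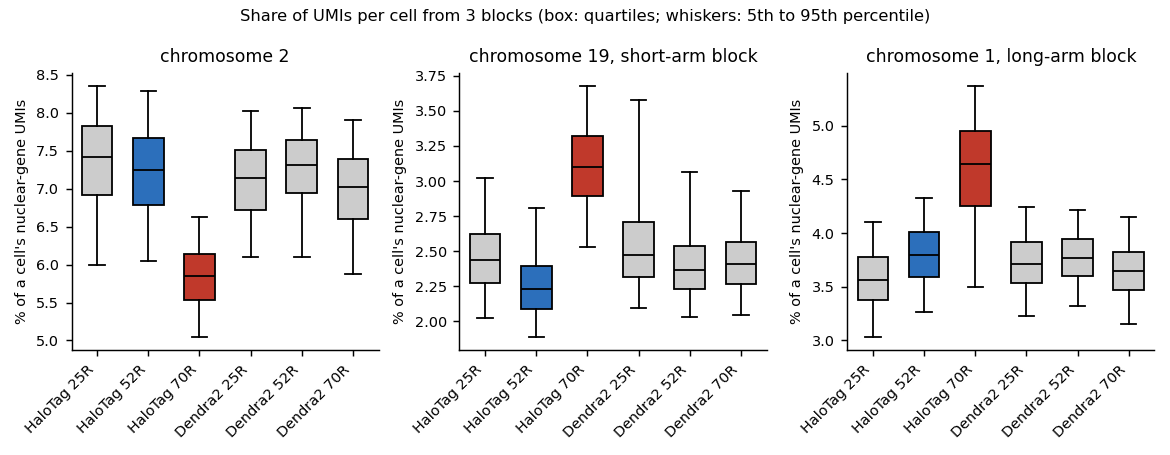
Share of each cell's nuclear-gene UMIs (y axis, percent, axes not starting at 0) that came from chromosome 2, from chromosome 19 between 2 and 20 Mb and from chromosome 1 beyond 140 Mb, by library; boxes are quartiles and whiskers the 5th to 95th percentile of cells. HaloTag 70R has the lowest chromosome 2 share and the highest share of both other blocks among the 6 libraries.

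To read single genes against this background, each ratio was also taken relative to the median of its 40 nearest measured neighbours. On that scale 15 genes were at least 2-fold higher, 11 of them among the original 31, and 36 at least 2-fold lower, 34 of them among the original 42. CNN1, which lies in the chromosome 19 block, went from 1.46 to 0.93, and LINC00862, on chromosome 1, from 1.12 to 0.75. CTAG2 (2.18), LUM (1.91), TAGLN (1.249), ANXA3 (−3.997) and HIST1H4C (−4.57) stayed past 2-fold.

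Gene lists of 41 pathways, complexes and markers were described by their median beside the −0.03 of all genes, and the 8 farthest from it among lists with at least 5 measured members follow. Their counts stand beside 55.2% of all genes below 0, 2.61% at least 1.5-fold higher and 3.53% at least 1.5-fold lower. Cholesterol biosynthesis was the lowest. Of 22 measured members 18 were below 0, the median log2 was −0.50, and 8 (against 3.53% of all genes) were at least 1.5-fold lower. INSIG1, which retains the sterol sensor in the endoplasmic reticulum, stood at 18.9 CPM in 52R and 8.91 CPM in 70R (log2 −1.08). HMGCS1, the synthase that makes HMG-CoA, was at 61.5 and 34.2 CPM (−0.85), MSMO1, a sterol demethylase, at 52.4 and 29.7 CPM (−0.82), and DHCR7, the last reductase of the pathway, at 42.7 and 25.2 CPM (−0.76). PMVK, phosphomevalonate kinase, on chromosome 1, was the highest at 0.37. Relative to neighbours the median was −0.50, and in the Dendra2 pair it was 0.34, so the medians of the 2 tags differed in sign. HMGCS1 (1.55), DHCR7 (0.55) and MSMO1 (0.45) were above 0 in the Dendra2 pair, but INSIG1 was below 0 there too (−0.43).

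Sterol genes are controlled by the transcription factor SREBP, which binds sterol regulatory elements beside NF-Y at CCAAT boxes. Promoters were searched on both strands, in the 250 bases before each start in RefSeq (GRCh38.p14), for TCACCCCAC, a sterol regulatory element core, and for CCAAT. Of the 22 measured members 16 matched a promoter by symbol. CCAAT was present in 13 of these 16 and in 33.0% of 27305 promoters, and TCACCCCAC in 1 (SREBF2) and in 0.348%. A match is only a match of letters. SREBF2, the gene of SREBP2 itself (log2 −0.21), is shown for its element, and INSIG1 and MSMO1 as low members with CCAAT boxes; capitals mark the element and CCAAT or its reverse complement, and all 3 are on the plus strand, at chr22:41832855-41833104, chr7:155297628-155297877 and chr4:165327419-165327668.
SREBF2: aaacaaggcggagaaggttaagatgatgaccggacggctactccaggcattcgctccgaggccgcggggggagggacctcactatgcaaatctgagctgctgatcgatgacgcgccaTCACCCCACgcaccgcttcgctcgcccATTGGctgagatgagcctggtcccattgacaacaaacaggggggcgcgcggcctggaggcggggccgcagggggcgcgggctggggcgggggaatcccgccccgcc
INSIG1: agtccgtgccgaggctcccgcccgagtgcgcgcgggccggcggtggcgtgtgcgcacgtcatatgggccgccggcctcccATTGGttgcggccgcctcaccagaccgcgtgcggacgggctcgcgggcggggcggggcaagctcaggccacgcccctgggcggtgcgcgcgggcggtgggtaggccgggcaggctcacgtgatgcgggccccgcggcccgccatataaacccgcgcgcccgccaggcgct
MSMO1: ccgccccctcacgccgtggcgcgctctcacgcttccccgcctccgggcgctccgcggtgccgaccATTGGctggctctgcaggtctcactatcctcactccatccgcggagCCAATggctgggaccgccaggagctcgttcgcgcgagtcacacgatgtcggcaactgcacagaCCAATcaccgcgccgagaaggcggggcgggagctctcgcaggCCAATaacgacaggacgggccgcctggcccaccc

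Actin cytoskeleton and contractile genes were higher, with 17 of 22 above 0 and a median of 0.22 (0.23 relative to neighbours). After CNN1 and TAGLN came TPM4, a tropomyosin (249 against 152 CPM, log2 0.71), and ACTN1, an actinin (409 against 272 CPM, 0.59). Relative to neighbours TPM4, which lies in the chromosome 19 block, was at 0.30 and ACTN1 at 0.52. The list's median in the Dendra2 pair was −0.21. Immediate early genes, induced within minutes of a stimulus, had 12 of 17 above 0 and a median of 0.34, led by FOS, KLF2 (17.2 against 7.91 CPM, 1.12), DUSP1, a MAP kinase phosphatase (102 against 56.6 CPM, 0.85), and JUNB (0.56). Of these 17 genes 7 lie in the chromosome 1 and 19 blocks, and relative to neighbours the median was 0.03. Collagens, matrix proteins and matrix enzymes spread widely, from −1.40 to 1.89. Their median was −0.28, with 6 of 29 at least 1.5-fold lower (3.53% of all genes) and 5 at least 1.5-fold higher (2.61%). Basement membrane collagens COL4A1 (−0.80) and COL4A2 (−0.75) were low beside COL5A2 and TGFBI, while LUM and COL8A1 were high. Relative to neighbours this median was −0.05, and with no filter on low values −0.03.

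TGF-β and SMAD targets had a median of −0.28 over 15 genes, with 9 below 0, but −0.11 with thinned sums and −0.15 with a minimum of 1 CPM or no filter. In the Dendra2 pair it was 0.03. TGFBI, PMEPA1, a feedback inhibitor (216 against 335 CPM, −0.63), and INHBA, an activin subunit (−0.49), were low. ID3 (188 against 94.6 CPM, 0.99) and ID1 (317 against 189 CPM, 0.75), inhibitors of helix-loop-helix factors, were high. NRF2 antioxidant genes had a median of −0.20 over 16 genes, −0.43 over those of at least 50 CPM, and 0.25 in the Dendra2 pair, with the quinone reductase NQO1 at −0.65, the ferritin light chain FTL at −0.52 and transketolase, TKT, at −0.44.

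Nuclear-encoded subunits of oxidative phosphorylation were mostly higher, 60 of 76, by little (median 0.17, and 0.22 relative to neighbours). The 4 highest, the complex I subunits NDUFA7 (0.77), NDUFA13 (0.72), NDUFB7 (0.68) and NDUFA11 (0.68), all lie in the chromosome 19 block, and relative to neighbours they were between 0.24 and 0.36. The 13 mitochondrially encoded mRNAs had a median of −0.09. Proteasome subunits had 22 of 31 above 0 and a median of 0.12. PSMB1 (0.53), PSMC1 (0.41), PSMD4 (0.33) and PSMD7 (0.30) were highest, and relative to neighbours they were at 0.19, 0.14, 0.05 and 0.30.

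**Figure D4:**
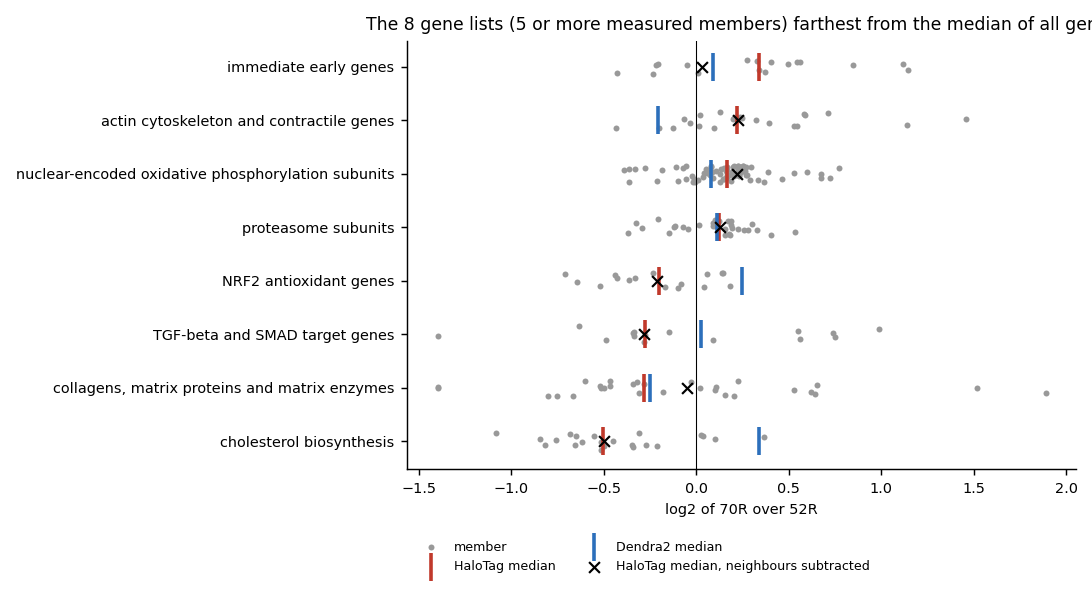
Log2 ratio of 70R over 52R for each measured member (grey points) of the 8 gene lists with at least 5 measured members farthest from the median of all genes, with the median in the HaloTag pair (red), in the Dendra2 pair (blue) and in the HaloTag pair relative to neighbours (crosses). Cholesterol biosynthesis is at −0.50 in HaloTag and 0.34 in Dendra2, and the immediate early median moves from 0.34 to 0.03 when neighbours are subtracted.

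Detection, the share of cells with at least 1 UMI of a gene, was compared with every cell thinned to 5000 UMIs, which left 3644 cells of 52R and 4460 of 70R (61 and 217 were too shallow). By at least 10 percentage points, 128 genes (1.54%) were detected in more 70R cells and 77 (0.926%) in fewer. TAGLN went from 44.6% (Wilson 95% interval 43.0 to 46.2) to 74.0% (72.7 to 75.2), with 67.0% and 85.0% before thinning. MFAP5 went from 26.9% to 50.3% (46.1% and 67.3% before thinning) and LUM from 13.3% to 36.7% (27.6% and 56.1%). GTF2H5, a TFIIH subunit, went from 48.2% to 70.3%. It lies in the shifted chromosome 6 window at 150 to 160 Mb, and its CPM ratio was log2 0.81, or 0.48 relative to neighbours. In the other direction IL32, a cytokine gene, went from 70.1% (68.6 to 71.6) to 45.9% (44.5 to 47.4), with 88.7% and 66.2% before thinning. QPRT, of NAD synthesis, went from 47.6% to 24.1%, and CLU, the chaperone clusterin, from 82.0% to 61.7%. ANXA3 went from 21.3% to 0.874%, and HIST1H4C from 19.2% to 1.03%. In the Dendra2 pair, thinned likewise, TAGLN (55.0% to 45.3%) and IL32 (49.5% to 73.1%) went the other way. So did MFAP5 (34.0% to 32.6%), GTF2H5 (48.9% to 48.3%) and QPRT (54.4% to 55.6%), by little. LUM (2.25% to 8.98%), CLU (67.9% to 61.8%), ANXA3 (26.5% to 23.0%) and HIST1H4C (52.2% to 6.20%) went the same way. No cell type that should lack these genes was present to give a background share.

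The deposited kinetic tables give a fitted mean, a burst frequency K in its own unit and limits for each gene, and burst size was taken as the mean over K. The fitted means are not scaled for depth, so ratios were centred on their median over the 3333 genes with a mean of at least 0.5 in both tables; before centring these medians were log2 −0.31 for the mean, −0.08 for K and −0.24 for size. After centring, K was at least 2-fold higher in 70R for 6 genes (0.18%) and lower for 3 (0.09%), the mean for 11 (0.33%) and 4 (0.12%), and size for 18 (0.54%) and 21 (0.63%). At a mean of at least 1 there were 0 such genes for K in either direction.

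The highest centred K ratios were those of HSPB2, a small heat shock protein (1.47, K 0.85 with limits 0.74 to 0.98 against 2.22 with limits 1.85 to 2.75), the ubiquitin-conjugating enzyme UBE2E1 (1.28), KATNBL1 (1.24), AC099066.2 (1.23) and the heparan sulfate proteoglycan SDC2 (1.07). NUDT2, a nucleotide hydrolase, had the lowest (−2.26), but its 52R limits ran from 6.04 to 1070, past any useful bound, and PIGBOS1 (−1.57), ACAA2 (−1.23), SELENOT (−0.97) and CRIPT (−0.91) followed. The 52R limits were also wide for SELENOT (4.58 to 102) and PIGBOS1 (6.30 to 44.8). Limits of 52R and 70R overlapped for NUDT2 and SELENOT, but not for PIGBOS1, ACAA2 and CRIPT. Size gave the same genes with the opposite sign in part: NUDT2 (2.66), PIGBOS1 (1.63) and ACAA2 (1.32) were among the 5 highest with RAB4A (1.42) and ZFAND1 (1.27), since size is computed by dividing by K. The K limits of 52R and 70R overlapped for RAB4A and ZFAND1 as well. Among the lowest sizes were those of BABAM2 (−1.45), KATNBL1 (−1.30), KRT8, a keratin (−1.24), and COL1A1, the main type I collagen chain (−1.24).

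The fitted mean was highest in 70R for CNN1 (1.45), CCL26 (1.23), MFAP5 (1.17), TAGLN (1.13) and LINC00862 (1.11). TAGLN and MFAP5 differed mostly in frequency: K went from 0.64 (limits 0.60 to 0.68) to 1.07 (1.02 to 1.13) for TAGLN and from 0.44 (0.41 to 0.48) to 0.82 (0.77 to 0.87) for MFAP5, with centred sizes of only 0.31 and 0.21. Among the lowest means were those of QPRT (−1.22), IL32 (−1.14), DNAJC10 (−1.002) and HIST1H1A (−0.96), and in QPRT the size (−0.94) moved more than K (−0.27). DNAJC10 lies on chromosome 2, and its CPM ratio was log2 −0.99, or −0.61 relative to neighbours. More widely, 72 genes had a centred mean at least 1.5-fold higher, with a median K ratio of 0.11 and size ratio of 0.60, and 59 at least 1.5-fold lower, with −0.02 and −0.72. K moved more than size in 17 of the 72 and 4 of the 59. The mean and the size share a value, so they are not independent.

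In the 3 chromosomal blocks the median size ratio was close to that of the mean, and the median K ratio stayed within 0.06 of 0. Medians over genes of the centred mean, K and size were −0.32, −0.04 and −0.27 for 221 genes of chromosome 2, 0.31, −0.04 and 0.35 for 168 genes of the chromosome 1 block, and 0.51, −0.06 and 0.55 for 88 genes of the chromosome 19 block. The 2856 other genes had −0.01, 0.01 and −0.01.

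**Figure D5:**
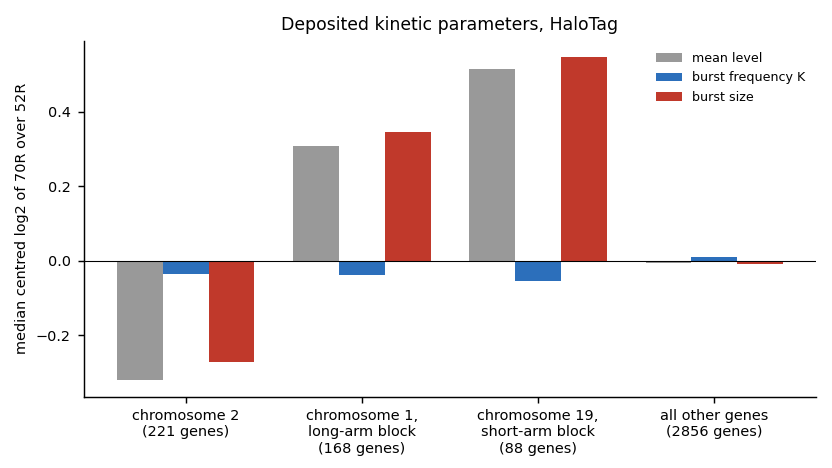
Median over genes of the centred log2 ratio of 70R over 52R (y axis) for the fitted mean, burst frequency K and burst size in the 3 chromosomal blocks and in all other genes, from the deposited kinetic tables. The K bars stay within 0.06 of 0 while the mean and size bars go together.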

How the data were processed

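The 6 single-cell 3′ libraries of U2OS cells, 1 per genotype, were read on a NextSeq 500 according to the labels. Per the file headers, Cell Ranger 6.1.2 gave the UMI counts that the authors deposited, with GRCh38 as the genome in the submitters' processing notes. The other values are the fitted means, K and limits of the authors' kinetic tables, whose entries name a beta-Poisson model; the sources used here give no version. Gene positions are from GENCODE on GRCh38.

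Here the tag row was dropped, cells were filtered, counts were summed and scaled to CPM, and log2 ratios carry a prior count of 2. CPM intervals are exact Poisson, fold intervals exact conditional and shares Wilson, all at 95%. Detection used cells thinned to 5000 UMIs. Phases came from list scores with 50 control genes in 25 bins (scanpy 1.11.5), and no doublet caller was run. With 1 library a side no test was run. TMM factors (edgeR 4.0.16) and DESeq2 1.42.0 size factors were scaling alternatives, which shifted all ratios by 0.04 and 0.02. The ratio and its interval were tested on simulated data. Named genes were the 15 largest CPM ratios per direction, 5 per direction among genes of at least 500 CPM, in detection, K, mean and size, 4 members of each of 8 lists, and the polymerase subunits; a few others were named after their values were seen (ELL2, CDC73, HIST1H2BJ, PMVK, ID1, ID3, EPCAM, CDH1, VIM and the genes at the 2-fold line). Members and lists were chosen with earlier results of these data known. A few genes that this rule names are not reported here.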

Additional observations from a re-analysis of the deposited data

Results flagged for a closer look

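Of the named genes, 3 were past 2-fold in opposite directions in the HaloTag and Dendra2 pairs, a difference that was not tested. TGM2 was at log2 −2.10 in HaloTag and 1.54 in Dendra2 (22.9 to 5.30 CPM against 5.59 to 16.4 CPM). CCN3 was at 1.41 and −1.38, and ANKRD45 at 1.34 and −1.10. The tag sequence itself, a row left out of all comparisons, had 699 UMIs in HaloTag 52R (13.0 CPM) and 547 in HaloTag 70R (10.1 CPM), above the 3 counts that a count of 0 allows.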

How the results depend on the processing

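No paired analysis was possible because each genotype is 1 library, and no replicate could be left out. Counts of genes at least 2-fold higher and lower (31 and 42) became 951 and 1826 with no filter, 163 and 230 at 1 CPM or more, and 13 and 6 at 50 CPM or more. The counts at 1.5-fold (217 and 294) became 2785 and 4869, 658 and 964, and 82 and 66 under those filters. Relative to neighbours, an alternative chosen after seeing the data, 15 were 2-fold higher, and 120 and 166 were past 1.5-fold. Detection counts (128 and 77) were 85 and 48 with thinning to 3000 UMIs and 30 and 1155 with no thinning, where the 70R cells are shallower. For K (6 and 3) a mean of at least 0.2 gave 248 and 149, and at least 1 gave 0 and 0. For the mean (11 and 4) these gave 21 and 8, and 2 and 1, and no centring 1 and 30. For size (18 and 21) they gave 206 and 307, and 3 and 2, and no centring 6 and 81. Other scalings, prior counts, cell filters, thinning and phase weights kept the CPM counts within 1.5 times. The polymerase II subunit median changed sign, to −0.0556 with thinned sums and −0.0012 relative to neighbours. Of 1020 values of named genes under these alternatives, 866 stayed within the counting interval of the reported ratio, 154 left it and 0 past 1.5-fold changed sign.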

Other observations

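Endoplasmic reticulum chaperones and unfolded protein response genes were low almost throughout: 18 of 19 measured members were below 0 in 70R over 52R, with a median log2 of −0.17 and 2 at least 1.5-fold lower. Of all measured genes 55.2% were below 0 and 3.53% at least 1.5-fold lower. In the Dendra2 pair the median of this list was only −0.04. PDIA4, a protein disulfide isomerase, stood at 53.5 CPM in 52R and 28.4 CPM in 70R (−0.91, and −1.23 in the Dendra2 pair), and HYOU1, a chaperone of the Hsp70 family, at 16.4 and 10.3 CPM (−0.67 and −0.27). The prolyl hydroxylases P4HA2 (−0.62) and P4HA1 (−0.59), which modify collagen, were the lowest of 24 glycolysis and hypoxia genes, whose median was −0.15.

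Intermediate filament genes ran in both directions. NES, encoding nestin, was at log2 −0.97 and KRT8 at −0.83, while KRT17 was at 0.76 and LMNA, the A-type lamin gene, at 0.32. Of 15 measured MAGE and other cancer-testis genes 3 were at least 1.5-fold higher in 70R (2.61% of all genes), CTAG2 (2.15), MAGEA10 (0.90) and GTSF1 (0.59), and the median was 0.02. The Mediator complex, which bridges activators and the polymerase, had a median of −0.01 over 27 genes, with 0 at least 1.5-fold higher or lower beside 2.61% and 3.53% of all genes, and 49 splicing factors had a median of 0.02. These genes were picked after their values were seen.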
